A study of Rattus norvegicus with 9 samples.

Results

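The genes described here are 44 named cell cycle genes, sorted by the phase in which they act, as measured by RNA sequencing in primary cortical neuron cultures of embryonic day 19 Sprague Dawley rats. They were listed by name, with no threshold on a measured value, and found in the deposited tables by gene symbol: 42 of the 44 matched 1 gene each among the 22050 genes listed. They comprised 5 cyclins and cyclin-dependent kinases (CDKs) of G1, 16 of 17 genes of the G1/S transition and DNA replication, and 21 of 22 genes of G2 and mitosis (G2/M). E2f1 and Ccnb2 were not analysed here. All 42 passed the filter on low counts that left 13693 genes for testing, and their results are read against those genes.

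The 9 libraries, of 14285914 to 25048521 counts each, formed 3 groups of 3. The first group, written OGD + WR, was deprived of oxygen and glucose (OGD), which models a stroke in a dish, and received Wnt3a at 100 ng/ml and Rspondin 1 at 50 ng/ml for 24 h. The second, OGD, spent 4.5 h at 1% oxygen in medium free of glucose and pyruvate, followed by regular medium in normal oxygen. The control cultures were untreated. Hours and oxygen are stated only for OGD alone, and no source used here gives the interval between OGD and harvest. The tables name the OGD group vehicle. Wnt3a is a secreted ligand of the Wnt/beta-catenin pathway, and Rspondin 1 makes cells more sensitive to such ligands. The design asks what the 2 proteins do to gene expression under OGD, and OGD against control gives the change with OGD alone.

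As background, a cell that divides first raises D-type cyclins with Cdk4 or Cdk6, then cyclin E with Cdk2, which together release the E2F factors that switch on the genes for DNA replication. The MCM helicase is loaded onto replication origins by Cdc6 and unwinds the DNA, and the G2/M genes, switched on later by the MuvB complex with B-Myb and FoxM1, build the spindle and separate the chromosomes. Neurons are post-mitotic, whereas neural progenitors, glia and fibroblasts can divide in culture, and stressed neurons are known to switch on some G1 genes without dividing.

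The cell type on the labels, cortical neuron, was met by its markers in every group, beside those of other cells. The summed level of 12 neuron markers was 608 to 826 FPKM (read counts scaled by gene length and library total) in OGD libraries, against 3501 to 3710 FPKM in controls, and all 12 fell. Over the same libraries, 9 of 10 tested astrocyte markers were higher. Their sum was 5975 to 6627 FPKM in OGD and 2253 to 2435 FPKM in controls. Each count of markers is to be read against all tested genes, of which 36.3% were called higher and 36.8% lower after OGD. For neural progenitor markers 7 of 9 tested were higher and 1 lower, with sums of 4023 to 4594 FPKM in OGD and 1053 to 1186 FPKM in controls. All 8 tested microglia markers were higher (Ptprc, Trem2 and P2ry12 were too low to test), at sums of 23.9 to 26.5 FPKM in OGD and 4.08 to 6.34 FPKM in controls. For mural and fibroblast markers 3 of 8 were higher and 3 lower. Their sums were 677 to 891 FPKM in OGD and 102 to 126 FPKM in controls. Most of these sums was 1 gene, Tagln, at a mean of 749 FPKM in OGD and 96.8 FPKM in controls. Pdgfrb and Acta2 also rose, while Dcn, Lum and Cspg4 fell, and Col1a1 and Col3a1 did not pass. The neuron, astrocyte and progenitor sums also rested largely on few genes. Mean levels in controls were 1205 FPKM for Tubb3, 729 FPKM for Gap43 and 686 FPKM for Stmn2. Mean levels in OGD were 3498 FPKM for Gfap, 2738 FPKM for Fabp7 and 1390 FPKM for Vim. The oligodendrocyte lineage had 6 of 10 higher and 3 lower, and endothelial markers 3 of 4 tested higher and 1 lower, with Cldn5 at 0 in all 9 libraries. These markers thus differed between the same libraries as the cell cycle genes below, with the neuron list down, some lists up and others mixed. Their part in each result was not tested. In bulk RNA, fewer cells of a type and less RNA per cell cannot be told apart. Nothing in the labels says that the 3 libraries of a group came from separate cultures or animals, so every p-value reflects the spread among these libraries alone, which may be technical.

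Promoters are shown first to set the sequences of the 2 phases side by side, and no test links them to the changes below. RefSeq promoters (build GRCr8, 250 bases before to 50 after the gene start) were found for 30 of the 42 members. Motifs were searched on both strands: the cell cycle homology region (CHR, to which MuvB complexes bind) as the word TTTGAA or the word TTCGAA, the E2F site as the word TTGGCGC, the word TTCGCGC, the word TTCCCGC or the word TTGGCGG, and the CCAAT box (bound by NF-Y) as CCAAT. Some E2F matches overlap on opposite strands. A CHR word lay in 12 of 16 G2/M promoters (75%) and in 3 of 12 G1/S promoters (25%), while 18.5% of all 18999 protein-coding promoters held one. The E2F words showed the opposite distribution, in 4 of 16 G2/M promoters (25%) and 10 of 12 G1/S promoters (83.3%), against 12.6% of all promoters. A CCAAT box was in 12 of 16 G2/M promoters (75%), in 8 of 12 G1/S promoters (66.7%) and in 38.4% of all. A match is a description of letters, not evidence of binding.

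Aurkb was not matched. Among matched members, 4 promoters were chosen for the smallest adjusted p after OGD within a phase and direction. They were those of 2 G2/M genes that rose, Prc1 (chr1:143659231-143659530, plus strand) and Bub1b (chr3:126016817-126017116, plus strand), of 1 G1/S gene that rose, Cdk2 (chr7:1721829-1722128, minus strand), and of 1 G1/S gene that fell, its cyclin Ccne1 (chr1:99927860-99928159, minus strand). Mcm2 (chr4:122918045-122918344, minus strand) and Mcm6 (chr13:42404303-42404602, minus strand), subunits of 1 helicase that moved in opposite directions, were added after their values were seen. Capitals mark CHR, E2F and CCAAT words, 5′ to 3′ on the gene's strand.
Prc1: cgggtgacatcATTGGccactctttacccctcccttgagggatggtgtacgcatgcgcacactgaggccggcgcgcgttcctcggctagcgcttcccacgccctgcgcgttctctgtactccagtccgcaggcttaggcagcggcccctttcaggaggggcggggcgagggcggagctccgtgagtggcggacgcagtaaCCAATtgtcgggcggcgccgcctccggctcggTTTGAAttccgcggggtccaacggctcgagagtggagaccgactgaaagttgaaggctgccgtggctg
Bub1b: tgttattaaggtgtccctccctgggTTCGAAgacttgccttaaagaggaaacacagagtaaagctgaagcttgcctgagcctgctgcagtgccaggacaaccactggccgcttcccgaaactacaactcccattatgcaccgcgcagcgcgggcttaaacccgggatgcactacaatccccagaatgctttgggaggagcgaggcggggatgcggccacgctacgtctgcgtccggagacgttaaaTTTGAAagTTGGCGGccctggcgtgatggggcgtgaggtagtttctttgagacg
Cdk2: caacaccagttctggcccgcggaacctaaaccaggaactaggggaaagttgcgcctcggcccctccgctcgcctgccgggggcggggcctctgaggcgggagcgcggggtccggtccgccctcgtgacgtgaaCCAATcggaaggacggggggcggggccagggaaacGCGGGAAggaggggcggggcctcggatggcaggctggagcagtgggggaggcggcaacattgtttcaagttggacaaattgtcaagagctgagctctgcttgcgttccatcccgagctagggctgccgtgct
Ccne1: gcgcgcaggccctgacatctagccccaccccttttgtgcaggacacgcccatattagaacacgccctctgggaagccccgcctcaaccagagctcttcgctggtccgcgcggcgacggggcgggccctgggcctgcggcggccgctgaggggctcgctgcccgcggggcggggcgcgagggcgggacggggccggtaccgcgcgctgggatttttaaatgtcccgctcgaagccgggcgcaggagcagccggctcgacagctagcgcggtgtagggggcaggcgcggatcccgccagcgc
Mcm2: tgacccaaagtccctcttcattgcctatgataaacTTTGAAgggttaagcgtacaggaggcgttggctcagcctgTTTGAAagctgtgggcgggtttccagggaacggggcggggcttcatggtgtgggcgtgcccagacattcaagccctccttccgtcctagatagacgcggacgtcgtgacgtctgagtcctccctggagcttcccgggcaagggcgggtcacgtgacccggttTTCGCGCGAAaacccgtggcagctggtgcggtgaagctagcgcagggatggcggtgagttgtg
Mcm6: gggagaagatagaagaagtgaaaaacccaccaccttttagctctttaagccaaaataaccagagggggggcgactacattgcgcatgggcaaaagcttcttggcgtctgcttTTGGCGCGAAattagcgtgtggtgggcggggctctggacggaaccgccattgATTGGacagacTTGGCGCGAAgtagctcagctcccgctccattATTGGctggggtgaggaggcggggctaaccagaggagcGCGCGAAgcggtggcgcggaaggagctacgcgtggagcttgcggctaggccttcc
Prc1 has its CHR word 18 bases before the start, a CCAAT box 50 bases before the start and another further upstream on the opposite strand. Bub1b has a CHR word that begins 4 bases before the start and is closely followed by an E2F word, and a further CHR word upstream. Cdk2 has 1 E2F word and 1 CCAAT box, while none of the words searched lies in this window of Ccne1. Mcm2 and Mcm6 both hold E2F words next to the start, on both strands in Mcm2, and Mcm6 holds 2 further pairs upstream. Mcm2 also holds 2 CHR words and Mcm6 2 CCAAT boxes.

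After OGD, 26 of the 42 genes were higher than in control, 7 were lower and 9 did not pass the test (edgeR quasi-likelihood test, Benjamini-Hochberg adjusted p under 0.05). This must be read against a transcriptome in which 73.1% of all tested genes passed, 36.3% higher and 36.8% lower. The phases differed in how they were made up. The G2/M genes gave 16 higher, 0 lower and 5 that did not pass, and the 21 changes all had a positive sign, with a median log2 change of 0.76. At an unadjusted p under 0.05 the G2/M counts were also 16 higher and 0 lower, where 37.4% of all tested genes were higher and 37.4% lower, and DESeq2 called 0 lower as well. The 16 G1/S genes were split, with 8 higher, 6 lower and 2 that did not pass (median 0.19). Their share of falls was near the 36.8% of all tested genes. Of the 5 G1 genes 2 were higher and 1 lower (median 0.23). The median over all tested genes was 0.02.

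**Figure D1:**
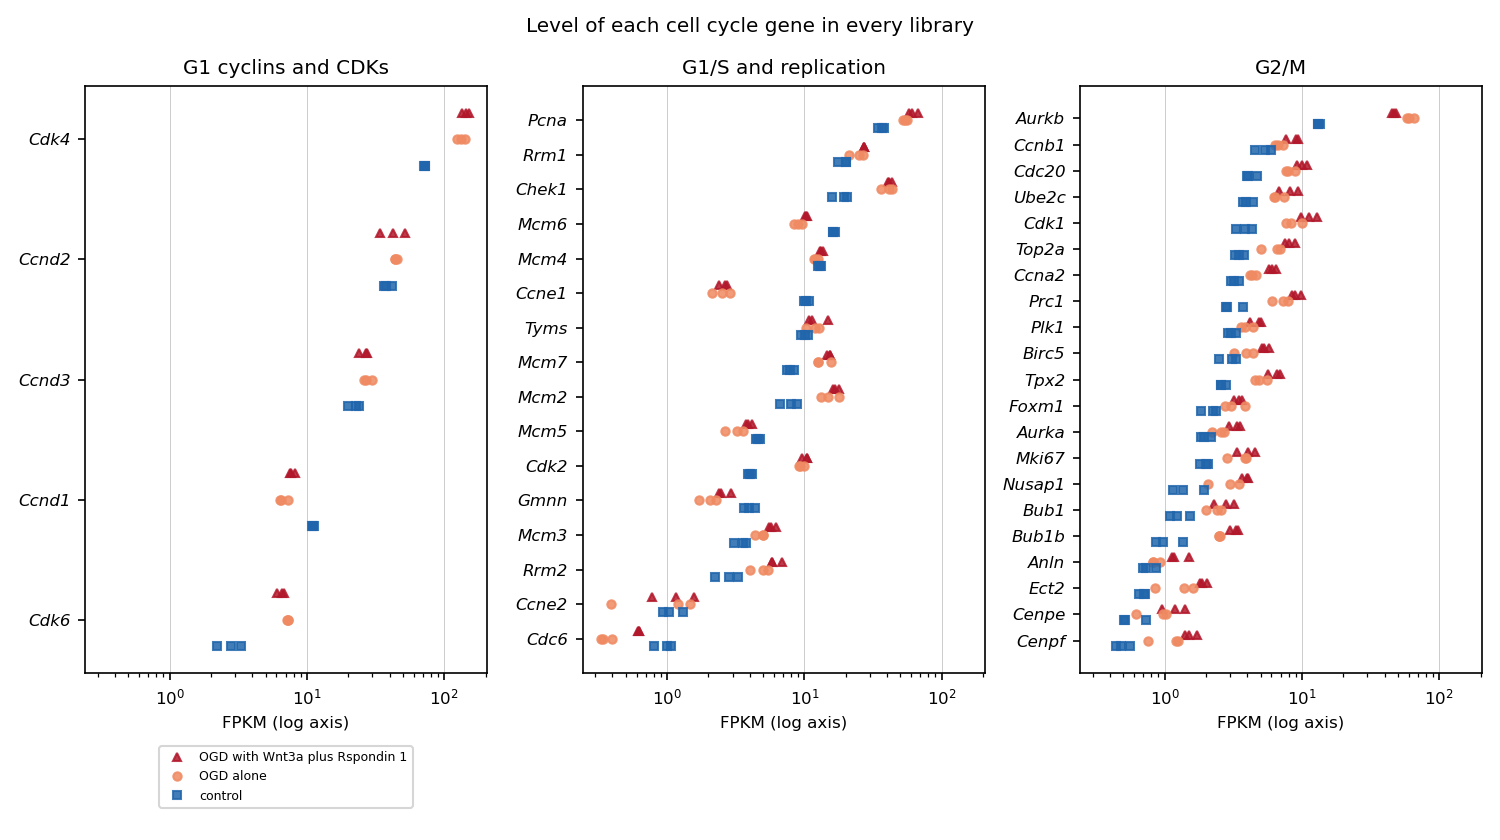
Each point is the level of a gene in 1 library (FPKM, log axis), for OGD + WR (triangles), OGD (circles) and control (squares), with genes sorted by their control level in each phase. In G2/M nearly all squares lie left of the circles, while in G1/S Ccne1, Mcm5, Mcm6, Gmnn and Cdc6 have their squares to the right.

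In G1, the kinases and the cyclin moved in opposite directions. Cdk4 (ENSRNOG00000025602), a kinase that D cyclins activate, had 133, 141 and 124 FPKM in the 3 OGD libraries, against 71.9, 72.2 and 70.6 FPKM in controls. It was the most abundant of the 42 genes per length in every group, and the OGD and control libraries did not overlap (log2 change 0.81 ± 0.08 SE, adjusted p = 8.1e-07). Its relative Cdk6 was much scarcer, with 7.11, 7.30 and 7.34 FPKM in OGD and 2.23, 3.30 and 2.80 FPKM in controls, and rose by 1.31 ± 0.14 (adjusted p = 2.9e-06). Cyclin D1 (Ccnd1), which couples growth signals and Wnt signalling to Cdk4, had 6.39, 7.23 and 6.52 FPKM in OGD against 11.4, 10.9 and 11.01 FPKM in controls. Every OGD library was below every control, and Ccnd1 fell by 0.80 ± 0.09 (adjusted p = 2.2e-06). The other D cyclins did not pass: Ccnd2 averaged 44.2 ± 0.977 FPKM in OGD and 38.5 ± 2.60 FPKM in controls (SD, n = 3 each), a log2 change of 0.12 ± 0.12. Ccnd3 averaged 27.6 ± 2.16 FPKM in OGD and 22.1 ± 2.1 FPKM in controls, a log2 change of 0.23 ± 0.10. Ccnd2 and Ccnd3 were thus the more abundant D cyclins in all groups. Cdk4 shares its locus with Tspan31 and has 4 named pseudogenes in RefSeq, so its reads may not all be its own.

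At the cyclin E step the kinase rose and its main partner fell. Ccne1 (ENSRNOG00000014786), cyclin E1, had 2.11, 2.51 and 2.89 FPKM in OGD libraries and 10.7, 9.90 and 10.2 FPKM in controls. It fell by 2.12 ± 0.13, the largest fall of the 42 genes, and the groups were far apart (adjusted p = 1.2e-08). Cdk2 (ENSRNOG00000006469), which cyclin E activates at the start of S phase, had 9.13, 9.96 and 9.29 FPKM in OGD against 3.9, 4.0 and 4.17 FPKM in controls, and rose by 1.15 ± 0.10 (adjusted p = 2.0e-07). Within a library the ratio of Ccne1 to Cdk2 in FPKM was 0.265 ± 0.0415 in OGD and 2.56 ± 0.168 in controls (SD, n = 3 each). An exact two-sided permutation test on this ratio gave p = 0.1, the smallest that 3 libraries against 3 allow, and the pair was chosen after its values were seen. Every OGD library was below every control for Ccne1 and above for Cdk2, so this outcome was fixed in advance and lends no support. Cyclin E2 (Ccne2) was low and scattered, at 0.39, 1.20 and 1.47 FPKM in OGD and 0.94, 1.04 and 1.31 FPKM in controls, so that a change of either sign was not detectable (log2 change -0.17 ± 0.36). Cdk2 overlaps Pmel and Ccne2 overlaps Ints8 in RefSeq. No source used here says whether strand was used in counting, so a neighbour's reads cannot be told apart from the gene's own.

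**Figure D2:**
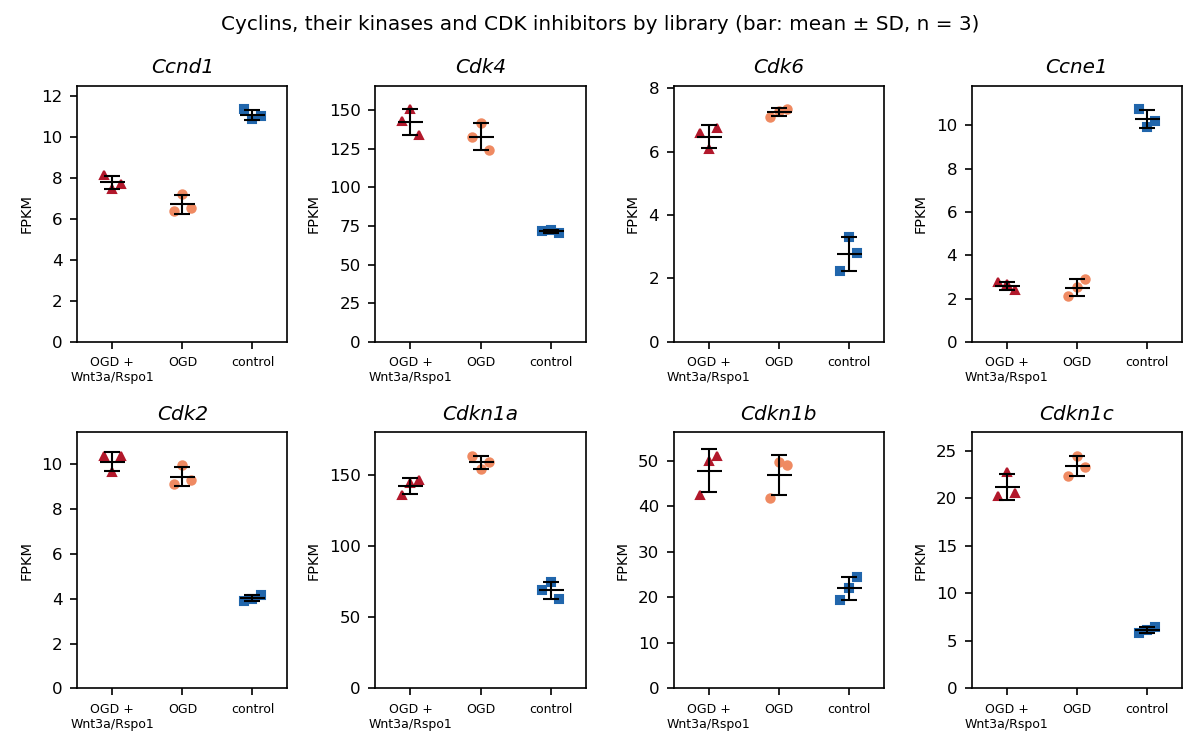
Level (FPKM, from 0) of G1 and G1/S cyclins, their kinases and 3 CDK inhibitors in each library, with the mean and SD of 3 libraries per group as bars. Ccnd1 and Ccne1 are highest in controls, while Cdk4, Cdk6, Cdk2 and the inhibitors are lowest there.

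The replication factors did not move as 1 group. Cdc6, which loads the MCM helicase, was the lowest of the G1/S genes after OGD, at 0.34, 0.33 and 0.40 FPKM in OGD (14, 21 and 18 reads) against 1.00, 1.07 and 0.80 FPKM in controls (58, 48 and 58 reads). It fell by 1.51 ± 0.23 (adjusted p = 5.3e-05), and its few reads limit the precision. Gmnn, geminin, which blocks a second round of loading, fell by 1.07 ± 0.18 to 2.01 ± 0.273 FPKM in OGD, against 3.99 ± 0.366 FPKM in controls (adjusted p = 0.00012). Chek1, the checkpoint kinase that answers stalled replication forks, rose by 0.93 ± 0.10 to 40.5 ± 3.87 FPKM in OGD, against 18.6 ± 2.44 FPKM in controls (adjusted p = 1.7e-06). Pcna, the sliding clamp of the DNA polymerases, rose by 0.49 ± 0.08 to 54.2 ± 1.88 FPKM in OGD, against 36.3 ± 1.75 FPKM in controls (adjusted p = 9.1e-05). In RefSeq Pcna has 3 named pseudogenes, Rrm1, Gmnn and Ccnd3 have 1 each, and Rrm2 overlaps Cys1. Both subunits of ribonucleotide reductase, which makes deoxynucleotides, rose: Rrm2 by 0.70 ± 0.18 (adjusted p = 0.0038) and Rrm1 by 0.25 ± 0.09 (adjusted p = 0.021). The call for Rrm1 was lost without control replicate 1 (0.19, adjusted p = 0.097), without OGD replicate 2 (0.18, adjusted p = 0.095) and without OGD replicate 3 (0.24, adjusted p = 0.053). Tyms, thymidylate synthase, did not pass, at 11.7 ± 1.29 FPKM in OGD and 10.1 ± 0.551 FPKM in controls (log2 change 0.13 ± 0.13).

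The 6 subunits of the MCM2-7 helicase, which act as 1 ring with a single copy of each, split evenly in sign. Mcm2 (ENSRNOG00000016316) had 17.9, 14.9 and 13.3 FPKM in OGD libraries, against 8.02, 8.88 and 6.67 FPKM in controls, and rose by 0.89 ± 0.13 (adjusted p = 4.4e-05). Mcm6 (ENSRNOG00000003703) went the other way, with 8.40, 9.59 and 8.92 FPKM in OGD and 16.8, 16.0 and 16.1 FPKM in controls, and fell by 0.95 ± 0.08 (adjusted p = 3.0e-07). In OGD every library thus had more Mcm2 than Mcm6 per length, and in controls every library had more Mcm6. The ratio of Mcm2 to Mcm6 was 1.72 ± 0.353 in OGD and 0.481 ± 0.0703 in controls (exact two-sided permutation p = 0.1, the smallest possible, pair chosen after its values were seen). With Mcm2 above and Mcm6 below the controls in every OGD library, that p was fixed in advance and lends no support. Mcm7 rose by 0.70 ± 0.11 (adjusted p = 5.5e-05) and Mcm3 by 0.37 ± 0.11 (adjusted p = 0.010), while Mcm5 fell by 0.64 ± 0.13 (adjusted p = 0.00046). Mcm4 had 11.8, 12.7 and 12.03 FPKM in OGD and 12.6, 13.1 and 13.2 FPKM in controls. These groups overlap in FPKM, its log2 change of -0.17 ± 0.07 was barely past the threshold (adjusted p = 0.049), and leaving out any single control or OGD library ended the call (adjusted p 0.052 to 0.14). Mcm2, Mcm4 and Mcm7 each have a named pseudogene in RefSeq, while Mcm3, Mcm5 and Mcm6 have none.

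**Figure D3:**
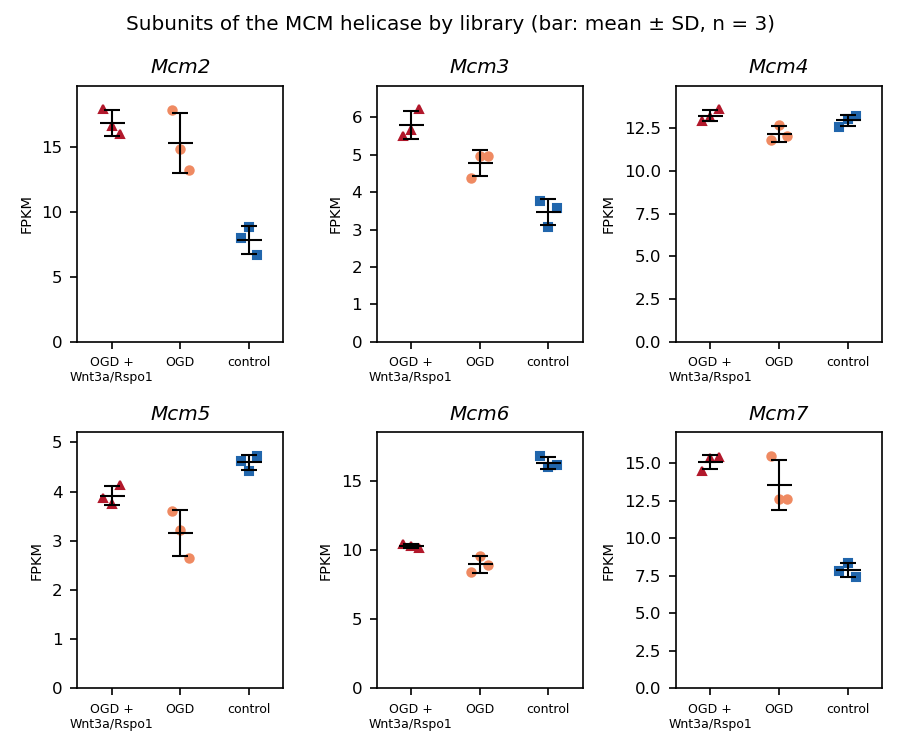
Level (FPKM, from 0) of each MCM2-7 subunit in every library, with mean and SD of 3 libraries per group as bars. Mcm2, Mcm3 and Mcm7 are higher in OGD than in control, Mcm5 and Mcm6 lower, and Mcm4 nearly level.

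Of the G2/M genes that drive entry into mitosis, Cdk1, Ccna2 and Foxm1 rose, and Ccnb1, Plk1 and Aurka did not pass. Cdk1, the kinase that starts mitosis, had 7.68, 9.94 and 8.27 FPKM in OGD against 3.84, 3.34 and 4.30 FPKM in controls, and rose by 1.08 ± 0.16 (adjusted p = 3.7e-05). Its cyclins had smaller changes, a difference that was not tested. Ccna2, cyclin A2, rose by 0.35 ± 0.13 to 4.39 ± 0.222 FPKM in OGD, against 3.24 ± 0.221 FPKM in controls (adjusted p = 0.023), a call lost without control replicate 1 (adjusted p = 0.053), control replicate 2 (0.066) or OGD replicate 2 (0.075). Ccnb1, cyclin B1, did not pass, at 6.79 ± 0.450 FPKM in OGD and 5.31 ± 0.683 FPKM in controls (log2 change 0.27 ± 0.14, adjusted p = 0.092). Plk1 and Aurka, kinases of the mitotic centrosome, did not pass either, with log2 changes of 0.27 ± 0.13 and 0.25 ± 0.15. Foxm1, a transcription factor of the G2/M programme, rose by 0.47 ± 0.16 (adjusted p = 0.017), and not without OGD replicate 1 (adjusted p = 0.069) or control replicate 3 (adjusted p = 0.069).

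Further G2/M genes that rose act at the kinetochore, in the spindle and in cytokinesis. Bub1b, the checkpoint kinase BubR1, had 2.5, 2.5 and 2.54 FPKM in OGD and 0.98, 0.86 and 1.37 FPKM in controls, and rose by 1.13 ± 0.16 (adjusted p = 2.6e-05). Prc1, which bundles the microtubules of the central spindle, had 6.02, 7.96 and 7.26 FPKM in OGD and 2.87, 2.82 and 3.75 FPKM in controls, and rose by 1.08 ± 0.14 (adjusted p = 9.5e-06). In both genes the OGD libraries all lay above the controls, as they did in scaled counts for 17 of the 21 G2/M genes and 8 of the 16 G1/S genes, where 37% of all tested genes did so. They lay below the controls for 0 of the 21 G2/M genes and 6 of the 16 G1/S genes, the latter near the 38.1% of all tested genes. The kinetochore protein Cenpf (1.04 ± 0.18), the spindle proteins Nusap1 (0.86 ± 0.20) and Tpx2 (0.83 ± 0.12), the anaphase activator Cdc20 (0.84 ± 0.12), its partner enzyme Ube2c (0.64 ± 0.17), the cytokinesis factor Ect2 (0.81 ± 0.21) and the checkpoint kinase Bub1 (0.76 ± 0.16) also rose. Cenpe, a kinetochore motor, rose by 0.52 ± 0.22 at an adjusted p of 0.045, which was lost when control replicate 1 or 3 or OGD replicate 2 or 3 was left out (adjusted p 0.13 to 0.14). Anln, anillin of the cytokinetic ring, did not pass, at 0.863 ± 0.0577 FPKM in OGD and 0.763 ± 0.0850 FPKM in controls. In RefSeq Foxm1, Plk1, Aurka, Nusap1 and Anln overlap another coding gene, and Cdk1, Aurka, Ube2c, Tpx2, Nusap1, Prc1 and Mki67 have named pseudogenes, so their counts are less certain.

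The common markers of proliferation rose by less than 2-fold. Mki67, which codes for the Ki-67 antigen, had 2.86, 3.93 and 3.87 FPKM in OGD and 1.80, 2.07 and 2.00 FPKM in controls (log2 change 0.78 ± 0.14, adjusted p = 0.00019). Top2a, topoisomerase II alpha, had 5.02, 6.94 and 6.62 FPKM in OGD and 3.25, 3.5 and 3.82 FPKM in controls (0.71 ± 0.13, adjusted p = 0.00025). The groups did not overlap in either gene, and OGD replicate 1 was the lowest OGD library in both. That library was the lowest of its group for 11 of the 21 G2/M genes. The same count held for OGD + WR replicate 1 and for control replicate 2 within their groups. Across genes, though, OGD replicate 1 differed more from its group than any other library did from its own. Without OGD replicate 1, 15 G2/M genes were called higher and 0 lower, with a median log2 change of 0.85. Of the 21 G2/M genes, 5 rose more than 2-fold (Aurkb, Bub1b, Cdk1, Prc1 and Cenpf), while 14.2% of all tested genes did. So did 1 of the 16 G1/S genes (Cdk2) and 1 of the 5 G1 genes (Cdk6). More than 2-fold falls were seen in 3 of the 16 G1/S genes (Ccne1, Cdc6 and Gmnn), a share near the 18.8% of all tested genes. They were seen in 0 of the 21 G2/M genes.

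Aurkb (ENSRNOG00000005659), the kinase of the chromosomal passenger complex that corrects chromosome attachment and drives cytokinesis, had the largest rise of the 42 genes. It had 59.9, 66.0 and 58.1 FPKM in OGD libraries, against 13.0, 13.1 and 13.5 FPKM in controls. The rise of 2.21 ± 0.08 had the smallest adjusted p of the 42 genes (4.1e-10), and by FPKM Aurkb ranked 2 among them in OGD and 8 in controls. The other members of the complex had changes near 0 or much smaller. Birc5, survivin, had 4.41, 3.91 and 3.20 FPKM in OGD and 3.08, 2.5 and 3.29 FPKM in controls, which overlap (log2 change 0.28 ± 0.19, adjusted p = 0.20). The scaffold Incenp had a log2 change of -0.05 ± 0.11 (adjusted p = 0.72), and Cdca8, borealin, rose by 0.31 ± 0.12 (adjusted p = 0.035). The ratio of Aurkb to Birc5 was 16.2 ± 2.36 in OGD and 4.52 ± 0.613 in controls (exact two-sided permutation p = 0.1, the smallest possible, pair chosen after its values were seen). Aurkb has no overlapping coding gene and no named pseudogene in RefSeq.

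**Figure D4:**
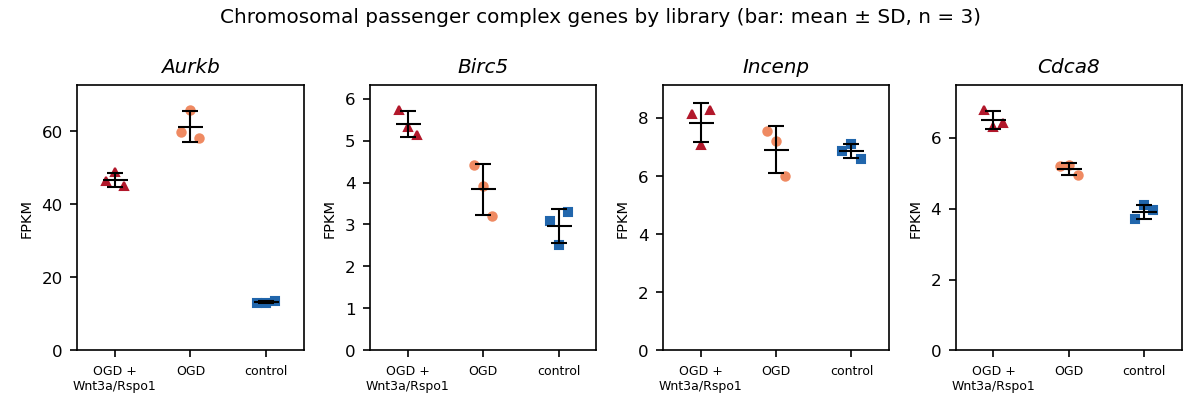
Level (FPKM, from 0) of the 4 chromosomal passenger complex genes in each library, with mean and SD of 3 libraries per group as bars. Aurkb in OGD stands far above control, with OGD + WR between them, while Birc5 and Cdca8 are highest in OGD + WR.

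Other genes of the cycle, taken from lists drawn up by function, give the setting, to be read against 36.3% of all tested genes called higher and 36.8% lower. Among CDK inhibitors and pocket proteins, which hold cells in G1, 7 of 8 tested genes rose and 0 fell, also 0 at an unadjusted p under 0.05. Cdkn1c, the inhibitor p57, rose by 1.83 ± 0.09, Cdkn2c, p18, by 1.51 ± 0.15 and Cdkn1a, p21, by 1.11 ± 0.08. Cdkn1a had 164, 154 and 159 FPKM in OGD and 69.1, 74.8 and 62.8 FPKM in controls. In this gene no OGD library overlapped a control. Of the antiproliferative and cell cycle exit genes, 8 of 11 rose and 2 fell, led by the stress genes Gadd45b (2.67 ± 0.20), Gadd45a (2.30 ± 0.15) and Gadd45g (2.23 ± 0.13), while Fzr1, the anaphase-promoting complex activator Cdh1 that keeps neurons out of the cycle, fell by 1.22 ± 0.11 (adjusted p = 3.7e-07). Of 42 further mitosis genes 25 rose and 2 fell (median 0.49). Dlgap5, a spindle protein, rose by 1.41 ± 0.15 and Ncapd2, a condensin subunit, by 1.30 ± 0.09, while Cdc25b, a phosphatase that activates Cdk1, fell by 0.80 ± 0.10 and Mad2l1, a spindle checkpoint protein, by 0.49. Of 29 further replication genes 12 rose and 6 fell (median 0.10), a share of rises near that of all tested genes, among them Ung, a uracil glycosylase, at 1.13 ± 0.11, Pold1, a polymerase subunit, at 0.95 ± 0.13 and Rpa2, a single-strand binding protein, at 0.85 ± 0.11. Of 15 further E2F, DP and DREAM genes 6 rose and 2 fell, also near that share for rises, with the repressor E2f6 at 0.97 ± 0.10, E2f5 at 0.94 ± 0.23 and Tfdp2 at 0.57 ± 0.13. Cdk5 and its activators, which work in neurons outside the cycle, all fell: Cdk5r2 by 3.08 ± 0.19, Cdk5r1 by 1.94 ± 0.11 and Cdk5 by 0.57 ± 0.07.

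With Wnt3a and Rspondin 1 added to OGD, 0 of the 42 genes passed the test against OGD alone with edgeR. Only 27 of all tested genes (0.197%) passed, 0.175% higher and 0.0219% lower, so this is near the background. At an unadjusted p under 0.05, 17 members were higher and 1 lower: 13 of the 21 G2/M genes (61.9%) and 4 of 16 G1/S genes (25%) were higher, where 2.74% of all tested genes were higher and 2.99% lower. DESeq2 called 1 member, Aurkb, and 99 genes in all. The direction was shared by most members: 20 of 21 G2/M changes were positive with a median log2 change of 0.34, and all 16 G1/S changes were positive with a median of 0.15, against a median of 0.00 over all tested genes. In scaled counts the 3 OGD + WR libraries lay above the 3 OGD libraries for 11 of 21 G2/M genes and 9 of 16 G1/S genes, where 4.73% of all tested genes did so, and below them for Aurkb and Cdk6 (4.85% of all tested genes). Without OGD replicate 1, 20 of 21 G2/M and 12 of 16 G1/S changes were positive (medians 0.28 and 0.16), and 10 G2/M and 6 G1/S genes were higher at an unadjusted p under 0.05. Without OGD + WR replicate 2 the G2/M count was 7, and the G1/S count was 1 without OGD replicate 3 and 2 without any 1 of the OGD + WR replicates. Members measured in the same 6 libraries are not separate observations. Cell type marker lists had medians of -0.20 to 0.15 in this comparison, with 1 astrocyte marker called higher. Their summed levels were 602 to 798 FPKM in OGD + WR and 608 to 826 FPKM in OGD for neurons, 5563 to 5892 FPKM in OGD + WR and 5975 to 6627 FPKM in OGD for astrocytes, and 4041 to 4545 FPKM in OGD + WR and 4023 to 4594 FPKM in OGD for progenitors. Their part was not tested.

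The G2/M genes with the smallest unadjusted p that leaned upward were Ccna2 and Top2a. Ccna2 had 5.78, 6.5 and 6.01 FPKM in OGD + WR against 4.33, 4.64 and 4.21 FPKM in OGD, without overlap (log2 change 0.45 ± 0.12, adjusted p = 0.34). Top2a had 7.49, 8.03 and 8.85 FPKM in OGD + WR and 5.02, 6.94 and 6.62 FPKM in OGD (0.39 ± 0.13, adjusted p = 0.53). In both genes all OGD + WR libraries were the higher ones. Further log2 changes were 0.54 ± 0.19 for Anln, 0.53 ± 0.19 for Ect2, 0.50 ± 0.17 for Cenpf and 0.47 ± 0.18 for Birc5, with adjusted p of 0.56 to 0.72. Cdk1 had 11.3, 13.0 and 9.82 FPKM in OGD + WR and 7.68, 9.94 and 8.27 FPKM in OGD, so the lowest treated library was below the highest of OGD (0.37 ± 0.15, adjusted p = 0.76). Mki67 overlapped between the groups, with 4.05, 3.36 and 4.58 FPKM in OGD + WR and 2.86, 3.93 and 3.87 FPKM in OGD (0.15 ± 0.13, adjusted p = 0.98).

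Aurkb was the 1 G2/M gene with the opposite sign. It had 46.4, 48.8 and 45.0 FPKM in OGD + WR against 59.9, 66.0 and 58.1 FPKM in OGD, so every treated library was below every library of OGD alone and still above all controls. The log2 change was -0.41 ± 0.08 with an unadjusted p of 0.00015 and an adjusted p of 0.063 (edgeR), just outside the threshold. The authors' deposited table gives it a log2 change of -0.39 with an FDR of 0.015, and DESeq2 an adjusted p of 9.2e-05. Over the alternatives tried, the edgeR and limma adjusted p ran from 0.024 to 0.29. The ratio of Aurkb to Birc5 was 8.68 ± 0.545 in OGD + WR and 16.2 ± 2.36 in OGD (exact two-sided permutation p = 0.1, the smallest possible). Every OGD + WR library was below every OGD library for Aurkb and above for Birc5, so that p was fixed in advance and lends no support. Of the other complex members, Cdca8 had a log2 change of 0.32 ± 0.12 and Incenp of 0.16 ± 0.11, neither past the threshold.

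Among the G1 and G1/S genes, Cdc6 had the largest difference. It had 0.61, 0.63 and 0.63 FPKM in OGD + WR (35, 31 and 30 reads) against 0.34, 0.33 and 0.40 FPKM in OGD (14, 21 and 18 reads). The groups did not overlap, yet the change of 0.80 ± 0.24 did not pass (adjusted p = 0.44). Cyclin D1, a known target of Wnt signalling, had 8.14, 7.48 and 7.71 FPKM in OGD + WR and 6.39, 7.23 and 6.52 FPKM in OGD (0.19 ± 0.09, adjusted p = 0.90). Its 3 treated libraries were above those of OGD and below the controls. Ccne1 and Cdk2 had log2 changes of 0.03 ± 0.14 and 0.08 ± 0.09, and Mcm2 and Mcm6 of 0.12 ± 0.13 and 0.18 ± 0.08. The ratio of Mcm2 to Mcm6 was 1.64 ± 0.0718 in OGD + WR and 1.72 ± 0.353 in OGD, and that of Ccne1 to Cdk2 was 0.256 ± 0.0229 in OGD + WR and 0.265 ± 0.0415 in OGD (SD, n = 3 each). With 3 libraries a group these values do not show that the ratios were the same. The 42 further mitosis genes also leaned upward, with 42 positive changes and a median of 0.28. None passed the edgeR test, and 14 were higher at an unadjusted p under 0.05, where 2.74% of all tested genes were.

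**Figure D5:**
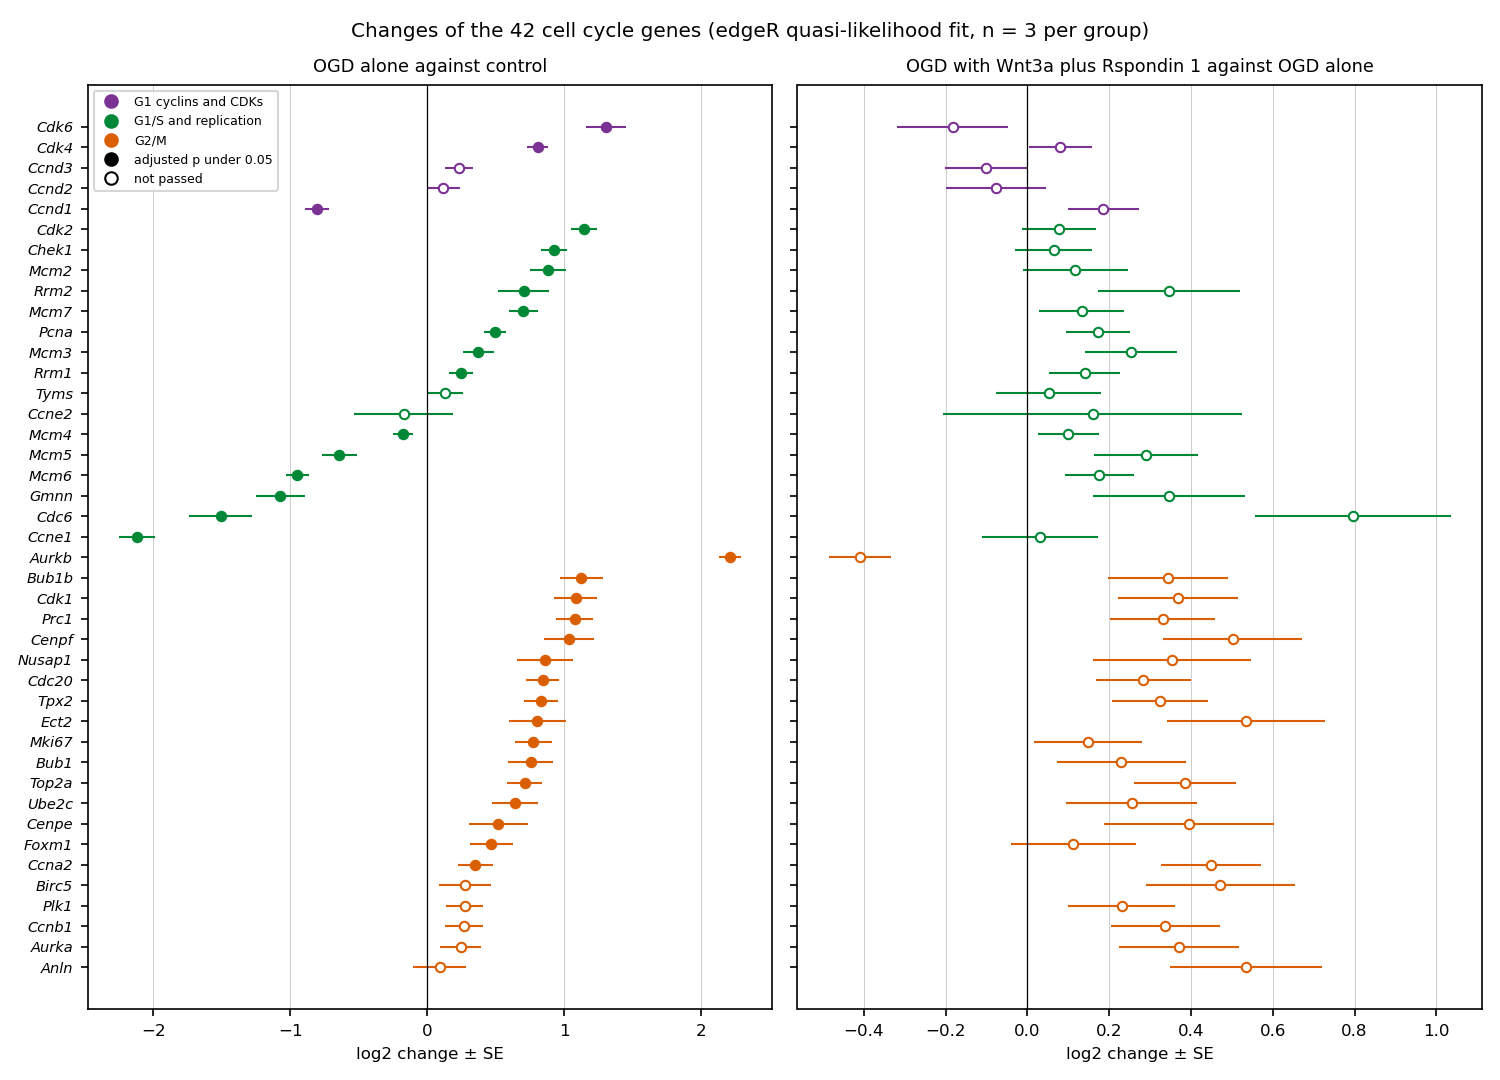
Log2 change with its SE for the 42 genes, OGD against control on the left and OGD + WR against OGD on the right, with filled points past an adjusted p of 0.05 and a narrower axis on the right. On the left G2/M points all lie above 0 and G1/S points on both sides, and on the right 0 points are filled and Aurkb lies apart at -0.41.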

How the data were processed

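Rat cortical cultures were sequenced after Illumina TruSeq preparation from 1 µg of total RNA, per the labels' protocols. The authors deposited, per gene and library, read counts that are not normalized and FPKM values, per the file headers. The same tables hold the authors' log2 fold changes and the authors' p-values as FDR, from a test not given in the sources used here, quoted only where named. Bowtie 0.12.2 and mouse builds are named, per the submitters' processing notes, although the identifiers are rat Ensembl genes, so aligner, build, counter and strand use are not given in the sources used here. Totals ran from 14285914 to 25048521 counts per library, with 2.91% to 4.97% mitochondrial, and a count of 0 allows up to 3 counts, a limit for counting error only.

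Counts were tested with edgeR 4.0.16 in R 4.3.3: filterByExpr (minimum count 10, minimum total 15) kept 13693 of 22050 genes, TMM normalization gave factors of 0.943 to 0.968 for controls and 1.001 to 1.033 for OGD and OGD + WR, and all 9 libraries entered 1 robust quasi-likelihood fit of 3 group means (6 residual degrees of freedom). Benjamini-Hochberg adjustment ran over all tested genes, threshold 0.05. FPKM carry no TMM factor, and for most members their ratios run slightly above the fitted changes in OGD against control. The gap differed by gene, with almost none for Aurkb and a larger one for Chek1, for reasons that were not tested. Alternatives used DESeq2 1.42.0 and limma 3.58.1. Libraries of a group differed by more than counting noise (chi-square divided by its degrees of freedom, 3.65 to 29.2). The largest values were those of OGD replicate 1 against OGD replicates 2 (29.2) and 3 (22.7), with 6.28 between OGD replicates 2 and 3. OGD replicate 1 also had the fewest counts and the lowest mitochondrial share of all libraries. Columns were matched to samples by name, and the columns headed WR to the titles headed RW. The text names all 42 matched genes' lists, up to 3 called genes with the smallest adjusted p of each other list, and the genes said to be chosen later. Further genes outside that rule (Incenp, Fzr1, Mad2l1) were named after their values were seen, and Cdca8 likewise. The members and lists were chosen with earlier results of these data known. RefSeq overlaps and pseudogenes were read by name only: 9 members overlap another coding gene and 15 have a named pseudogene.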

Additional observations from a re-analysis of the deposited data

How the results depend on the processing

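Of the 1092 values of the 42 genes recomputed under alternatives, 0 reversed a called direction; after OGD 508 of them stayed on their side of the threshold, 27 lost the call (Mcm4, Cenpe, Ccna2, Rrm1 and Foxm1) and 11 gained it (Ccnd3, Ccnb1, Plk1 and Birc5), with 1 sign change in a gene that was not called. All 21 G2/M changes stayed positive after OGD, with medians of 0.54 to 0.85, and the calls numbered 14 to 18. Scaling by library totals alone moved the median of all genes to 0.10. For OGD + WR against OGD, 541 values stayed, 5 became calls, all of Aurkb, and 8 uncalled ones changed sign; 20 of 21 G2/M changes were positive in every alternative (medians 0.28 to 0.42) and 12 to 16 of the 16 G1/S changes (medians 0.12 to 0.18). Aurkb was the 1 member called lower with RLE factors (adjusted p = 0.049), no filter (0.048), DESeq2 (9.2e-05), the replicate block (0.024) and without OGD replicate 1 (0.026), so the count of G2/M genes and of all members called lower was 1 there and 0 otherwise. G1/S genes higher at an unadjusted p under 0.05, 4 as reported, numbered 1 with RLE, DESeq2 and the 6 libraries alone, 2 with no filter, 7 with limma on log2(FPKM + 1), and 1 to 6 with a library left out. For G2/M, 13 as reported, the left-out range was 7 (without OGD + WR replicate 2) to 11. Over all genes, 24 higher and 3 lower as reported, DESeq2 gave 60 and 39, the replicate block 43 and 22, the 6 libraries 12 higher, RLE 5 lower and no filter 7 lower; leaving out a library gave 10 to 38 higher and 2 to 11 lower, with 38 and 11 without OGD replicate 1. The causes were not tested. Same-numbered libraries did not all deviate together (r of 0.27, -0.05 and 0.11 for OGD with control, 0.23, 0.07 and 0.27 for OGD + WR with OGD), so the numbers were not taken as pairs, though each OGD + WR library correlated best with its own number in OGD. Depth limits Cdc6, the gene with the fewest reads, and other genes of few reads such as Ccne2, Anln and Gmnn.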
